A study of Rattus norvegicus with 2 samples.

Results

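Lamp5 interneurons are inhibitory neurons of the upper cortical layers, most of them neurogliaform cells with short, dense axons. They release GABA diffusely into the tissue around their axon, where it acts on synaptic and extrasynaptic GABA-A receptors and on GABA-B receptors. As background, most of them arise in the caudal ganglionic eminence of the embryonic brain, together with the Vip and Sncg classes, whereas Pvalb and Sst interneurons arise in the medial eminence. In rodents they are known for Lamp5, a membrane protein of inhibitory synapses, for the secreted glycoprotein reelin, and for the peptide NPY.

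Nuclei of this kind were examined in rat orbitofrontal cortex, a frontal area that weighs the value of outcomes. They came from 2 single-nucleus RNA libraries of 8-week-old male Sprague-Dawley rats. The METH library came from rats given 1 mg/kg methamphetamine by intraperitoneal injection over 7 days, in a study titled as a model of sensitization to the drug, and the saline library from rats given saline over the same 7 days. Tissue of 4 animals went into each group, and the animals cannot be told apart in the deposited counts.

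The nuclei were chosen by their own counts. A barcode with at least 500 genes was taken as GABAergic with at least 1 UMI (unique molecular identifier, a counted RNA molecule) of Gad1 and Gad2 together and none of Slc17a7. Gad1 and Gad2 encode the GABA-synthesising enzymes, and Slc17a7 encodes the vesicular glutamate transporter of cortical excitatory neurons. A nucleus entered the gate with at least 3 of the 6 genes Pde11a, Lamp5, Sv2c, Hapln1, Reln and Homer2, with Pde11a or Lamp5 among them, and with no Vip, at most 2 Btbd11 and at most 1 Unc13c UMIs. This left 204 nuclei of 12407 kept barcodes (12512 deposited), 106 in the METH library and 98 in the saline library. The other 1307 METH and 1044 saline GABAergic nuclei served as the comparison. The 2 libraries shared 9 barcodes, none of them in the gate of either library.

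Depth differed between the libraries. Gated nuclei had a median of 6207 UMIs and 2979 genes in METH and 4615 UMIs and 2471 genes in saline, and their sums were 734000 and 549566 UMIs in METH and saline. After each nucleus was thinned to 2000 UMIs, the median number of genes was 1308.5 in METH and 1327 in saline. With 1 library per group no spread between samples exists, so no test was made. Levels are CPM, a gene's summed UMIs scaled to the UMI total of the same nuclei in that library, and are compared only within a gene. The 95% intervals are exact binomial or Poisson intervals that cover counting error only.

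The promoters of Lamp5, the gene that names the class, and of Id2, a transcriptional regulator known from neurogliaform cells that the gate did not use, are shown for reference. They span 250 bases before to 50 after the RefSeq gene start, at chr3:143824947-143825246 on the + strand for Lamp5 and chr6:47470946-47471245 on the - strand for Id2 in RefSeq's GRCr8 assembly. Capitals mark CCAAT and GGGCGG, boxes found in many promoters, on either strand.
Lamp5: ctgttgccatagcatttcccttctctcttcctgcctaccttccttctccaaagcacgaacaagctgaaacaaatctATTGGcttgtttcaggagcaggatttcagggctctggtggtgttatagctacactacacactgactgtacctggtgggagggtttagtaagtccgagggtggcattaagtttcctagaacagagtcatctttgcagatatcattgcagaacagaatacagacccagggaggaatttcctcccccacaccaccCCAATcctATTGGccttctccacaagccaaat
Id2: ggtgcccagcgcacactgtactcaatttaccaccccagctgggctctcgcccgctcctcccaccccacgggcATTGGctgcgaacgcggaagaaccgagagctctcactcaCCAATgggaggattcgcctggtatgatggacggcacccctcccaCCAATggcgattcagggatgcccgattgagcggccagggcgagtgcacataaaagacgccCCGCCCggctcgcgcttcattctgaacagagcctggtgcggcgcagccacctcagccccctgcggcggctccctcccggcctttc
CCAAT matched 3 times in each of these promoters, GGGCGG once in the Id2 window and not in the Lamp5 window, and TAATTA, a core of homeodomain binding sequences, in neither. Over 33469 RefSeq promoters of that length, 37.5% held CCAAT, 33.1% GGGCGG and 5.36% TAATTA. Matched by symbol, 7 entries for gate genes, of which 3 are starts of Pde11a, and 12 for the leading genes outside the gate were found, and CCAAT was in 3 of the 7 and 3 of the 12. GGGCGG was in 2 of the 7 and 9 of the 12, and TAATTA in 1 of the 7 and 1 of the 12, all given as a description.

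The gate genes chose the nuclei, so their levels are a description. Pde11a, a phosphodiesterase of cAMP and cGMP, stood at 1097 CPM in METH and 1024 CPM in saline gated nuclei, against 130 and 110 CPM in the other GABAergic nuclei of the METH and saline libraries. Reln, the gene of reelin, stood at 2785 CPM in METH and 3625 CPM in saline gated nuclei. Sv2c, a synaptic vesicle protein, stood at 894 CPM in METH and 977 CPM in saline gated nuclei. The postsynaptic scaffold gene Homer2 stood at 500.0 CPM in METH and 433 CPM in saline, Hapln1, a link protein of the perineuronal matrix, at 135 CPM in METH and 142 CPM in saline, and Lamp5 itself at 112 CPM in METH and 140 CPM in saline.

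Lamp5 was seen in 48.1% of METH and 52.0% of saline gated nuclei, whereas Pde11a was seen in 92.5% and 91.8% of METH and saline gated nuclei. At 2000 UMIs per nucleus, Lamp5 was seen in 21.2% of METH and 28.9% of saline gated nuclei, against 1.95% and 2.63% of oligodendrocyte nuclei, a glial type without it, in METH and saline. The same shares for Pde11a were 78.8% in METH and 74.2% in saline gated nuclei and 0% of oligodendrocyte nuclei in both libraries, where 0 of 154 METH and 0 of 114 saline nuclei allow a share of up to 1.95% in METH and 2.63% in saline. The median depths before thinning were 2121 UMIs in METH and 1664 UMIs in saline oligodendrocyte nuclei. More gated nuclei thus held a Pde11a UMI than a UMI of the gene that names the class.

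Gate genes just inside and just outside the threshold are given as a description, since their number places a nucleus on either side. Nuclei with 3 of the 6 genes, just inside, held Pde11a at 866 CPM in METH and 715 CPM in saline, and nuclei that met every other condition with only 2 of the genes, 37 in each library, held it at 666 CPM in METH and 308 CPM in saline. Sv2c stood at 382 CPM in METH and 508 CPM in saline just inside, and at 69.7 CPM in METH and 4.74 CPM in saline just outside. Reln stood at 946 CPM in METH and 1067 CPM in saline just inside, and at 689 CPM in METH and 749 CPM in saline just outside.

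**Figure D1:**
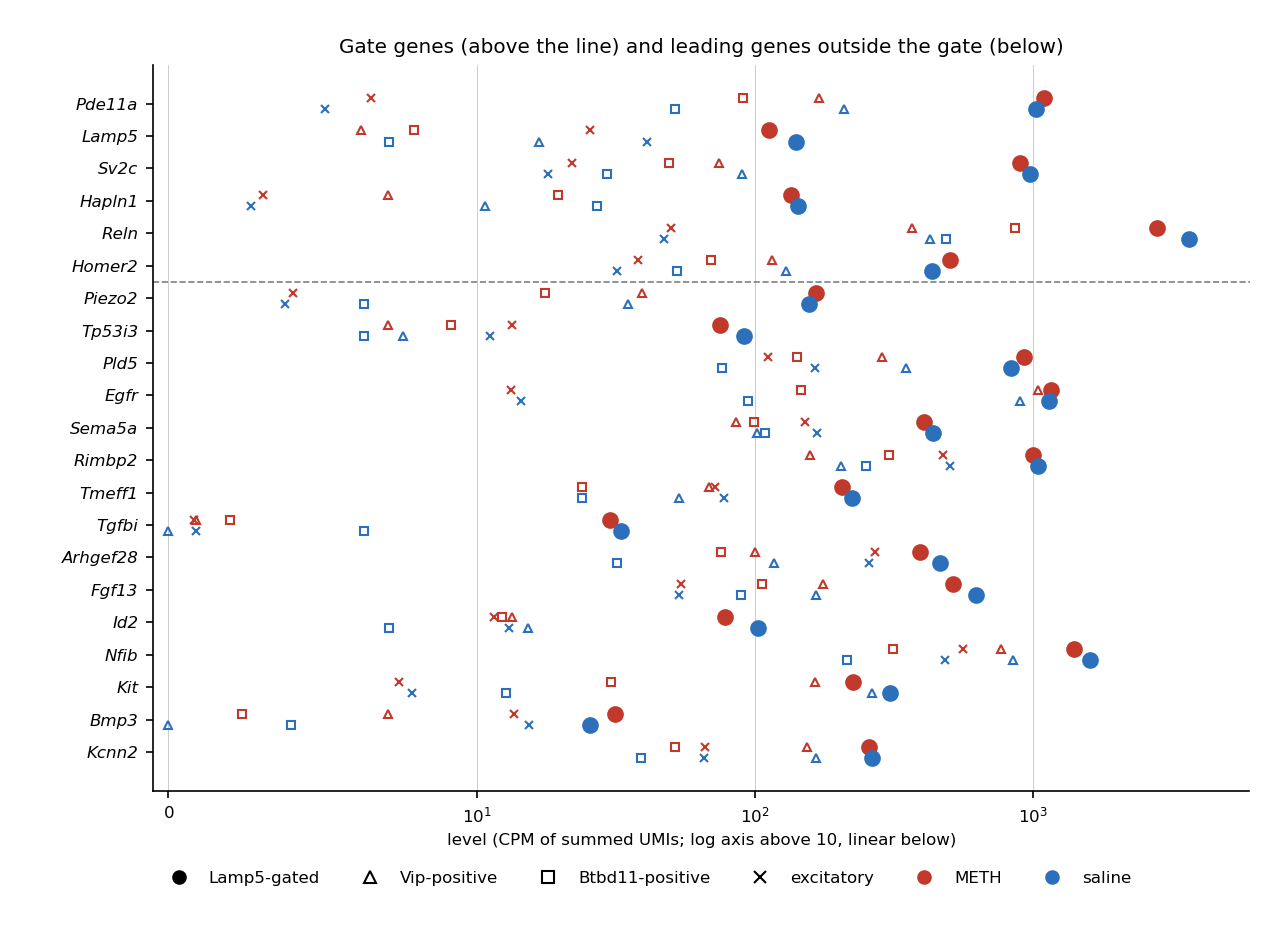
Levels of the 6 gate genes and of the 15 leading genes outside the gate, in CPM of summed UMIs on an axis that is logarithmic above 10 and linear below, for gated, Vip-positive, Btbd11-positive and excitatory nuclei of the METH (red) and saline (blue) libraries, 1 point per library. Of the 15 leading genes, Egfr has a Vip-positive level (1044 CPM in METH, 899.8 CPM in saline) close under its gated level (1163 CPM in METH, 1143 CPM in saline), whereas Piezo2 (164.9 CPM in METH and 156 CPM in saline gated nuclei) lies far below it there (39.1 CPM in METH, 35.0 CPM in saline).

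Genes outside the gate were set against the other GABAergic nuclei of the same library. Because the nuclei were chosen by genes that vary along with these, this too describes the gate. Of 8235 genes measured, 162 (1.97%) were higher in gated nuclei in both libraries and 135 (1.64%) were lower, by a size rule that asks for a ratio past 1.5-fold whose interval also lies wholly past 1.5-fold. Egfr, the epidermal growth factor receptor, stood at 1163 CPM in METH and 1143 CPM in saline gated nuclei, against 261 and 232 CPM in the other GABAergic nuclei of METH and saline (log2 2.15, 2.04 to 2.27, in METH; 2.30, 2.16 to 2.44, in saline). The mechanosensitive channel gene Piezo2 was higher by log2 2.83 (2.49 to 3.17) in METH and 2.87 (2.44 to 3.29) in saline. Fgf13, an intracellular partner of sodium channels, was higher by log2 2.01 in METH and 2.29 in saline, and Kcnn2, a small-conductance calcium-activated potassium channel, by log2 2.00 in METH and 1.99 in saline. The receptor tyrosine kinase gene Kit was higher by log2 2.03 in METH and 2.29 in saline, Id2 by log2 2.31 in METH and 2.90 in saline, and the transcription factor gene Nfib by log2 1.90 in METH and 2.14 in saline.

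The leading genes also included Tp53i3, Pld5, the semaphorin gene Sema5a, Rimbp2, whose product links release-site proteins to calcium channels, Tmeff1, the secreted matrix protein gene Tgfbi, Arhgef28 and the bone morphogenetic protein gene Bmp3. Pld5 stood at 929 CPM in METH and 830 CPM in saline gated nuclei, against 172 and 168 CPM in the other GABAergic nuclei of METH and saline. Some of these genes were not limited to interneurons. At 2000 UMIs per nucleus, Rimbp2 was seen in 77.9% of METH and 83.5% of saline gated nuclei but also in 52.0% of METH and 58.4% of saline excitatory nuclei, and Arhgef28 in 55.8% of METH and 57.7% of saline gated and 38.7% of METH and 36.9% of saline excitatory nuclei. Egfr was seen in 67.3% of METH and 77.3% of saline gated nuclei at that depth, and in 2.73% of METH and 2.24% of saline excitatory nuclei. Egfr, Kit and Prox1 were shared with Vip-positive nuclei, where Kit stood at 164 CPM in METH and 263 CPM in saline, against 30.2 and 12.7 CPM in Btbd11-positive nuclei of METH and saline. Alk, a receptor tyrosine kinase, was not shared in this way, with 1343 CPM in METH and 1585 CPM in saline gated nuclei and 217 CPM in METH and 274 CPM in saline Vip-positive nuclei.

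The lowest genes were Pappa2, Grik3, Cdk15, Shisa6 and Satb1. Pappa2, a secreted protease of insulin-like growth factor binding proteins, had no UMI in METH and 1.82 CPM in saline gated nuclei, against 67.3 CPM in METH and 74.8 CPM in saline in the other GABAergic nuclei. The kainate receptor subunit gene Grik3 stood at 35.4 CPM in METH and 29.1 CPM in saline gated nuclei, against 313 CPM in METH and 276 CPM in saline in the others. Shisa6, an AMPA receptor partner, stood at 51.8 CPM in METH and 29.1 CPM in saline gated nuclei, against 613 CPM in METH and 720 CPM in saline Vip-positive nuclei. Satb1, a chromatin organiser of medial eminence interneurons, stood at 87.2 CPM in METH and 67.3 CPM in saline gated nuclei, against 588 CPM in METH and 593 CPM in saline in the others.

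The label was checked against known genes of the class, and only part of them were higher. Of 26 listed Lamp5 and neurogliaform genes, none of them a gate gene, 17 were measured, and 10 were higher than in the other GABAergic nuclei in METH and 10 in saline, with 3 lower in METH and 4 in saline. Of all 8235 genes outside the gate, 2.95% were higher in METH and 2.9% in saline gated nuclei, and 2.72% were lower in METH and 2.67% in saline. The genes of the list may vary along with the gate genes, so these counts too are a description. Their median difference was log2 1.07 in METH and 1.198 in saline, beside -0.06 in METH and -0.05 in saline over all 8246 measured genes. Adarb2, an RNA-binding protein gene of caudal eminence interneurons, stood at 2083 CPM in METH and 1439 CPM in saline gated nuclei, against 746 CPM in METH and 628 CPM in saline in the others. Prox1, a homeobox factor of the same lineage, was higher by log2 1.52 (1.198 to 1.84) in METH and 1.08 (0.68 to 1.47) in saline, and Tox2 by log2 1.03 in METH and 1.31 in saline. Eya4 went the other way, at 12.3 CPM in METH and 14.6 CPM in saline gated nuclei, against 129 CPM in METH and 148 CPM in saline in the others. NPY could not be used as a check, because Npy had 0 UMIs in the whole METH library and 1 in the whole saline library, and Ndnf is not in the gene table used here.

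Transcription factor genes of the caudal and medial eminences were counted in the same way. Of 8 measured caudal eminence factors, 5 were higher in METH and 6 in saline gated nuclei than in the other GABAergic nuclei, and none in METH and 1 in saline, Npas1, was lower. Of all genes outside the gate, 2.95% were higher in METH and 2.9% in saline, and 2.72% were lower in METH and 2.67% in saline. Zbtb16 was higher by log2 0.95 in METH and 1.19 in saline, and Nfix by log2 1.93 in METH and 2.02 in saline. Of 7 measured medial eminence factors, none was higher, 4 were lower in METH and 4 in saline, and 3 were not called in either direction in each library. Sox6 stood at 320 CPM in METH and 151 CPM in saline gated nuclei, against 1006 CPM in METH and 1047 CPM in saline in the others. Lhx6, which marks a medial-eminence subset of Lamp5 cells in mice and primates, had 5 UMIs in METH and 1 UMI in saline over all gated nuclei.

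Of 13 measured GABA receptor genes, 3 were higher in METH and 6 in saline gated nuclei than in the other GABAergic nuclei, and none was lower, beside 2.95% of all genes outside the gate higher in METH and 2.9% in saline, and 2.72% lower in METH and 2.67% in saline. Their median was log2 0.71 in METH and 0.63 in saline. The GABA-A beta subunit gene Gabrb2 stood at 1228 CPM in METH and 1425 CPM in saline, against 564 CPM in METH and 582 CPM in saline in the other GABAergic nuclei. The GABA-B subunit gene Gabbr2 was higher by log2 0.91 (0.80 to 1.02) in METH and 0.86 (0.74 to 0.99) in saline. Gabrd, the delta subunit of extrasynaptic GABA-A receptors, was higher by log2 0.89 (0.49 to 1.27) in METH, short of the rule, and 1.31 (0.88 to 1.73) in saline. Among 22 glutamate receptor genes, 1 was higher and 7 lower in METH, and 3 were higher and 5 lower in saline, with a median of log2 -0.33 in METH and -0.17 in saline. The NMDA subunit gene Grin2a was higher by log2 1.08 in METH and 1.02 in saline, whereas Grin3a was lower by log2 -2.27 in METH and -1.80 in saline, and the metabotropic receptor gene Grm7 stood at 454 CPM in METH and 502 CPM in saline gated nuclei, against 908 CPM in METH and 1000.2 CPM in saline in the others. Adra1a, the alpha-1A adrenergic receptor gene, was higher by log2 1.23 in METH and 1.22 in saline, Chrna7, a nicotinic receptor gene, by log2 1.28 in METH and 0.96 in saline, and Oprm1, the mu opioid receptor gene, by log2 1.05 in METH and 1.41 in saline. Among 10 serotonin, acetylcholine and adrenergic receptor genes, 4 were higher and 2 lower in METH, and 2 were higher and 1 lower in saline. Within the reelin pathway, 2 of 8 measured genes were higher and none lower in each library, and 1 of the 2 was Reln, which the gate used. The other, Dab1, the adaptor that relays the reelin signal inside the receiving cell, stood at 1117 CPM in METH and 1021 CPM in saline gated nuclei, against 381 CPM in METH and 371 CPM in saline in the others.

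Of 21 measured synaptic vesicle release genes, 2 were higher in METH and 4 in saline gated nuclei than in the other GABAergic nuclei, and none was lower. The gate gene Sv2c was among them in both libraries, beside Rims1, and Rims2 and Syn2 were the others in saline. Of all genes outside the gate, 2.95% were higher in METH and 2.9% in saline, and 2.72% were lower in METH and 2.67% in saline. Without Sv2c, 1 vesicle gene was thus higher in METH, a share near that of all genes. The median of the list was log2 -0.01 in METH and -0.05 in saline. Rims1, a scaffold of the vesicle release site, stood at 3083 CPM in METH and 3392 CPM in saline gated nuclei, against 1326 CPM in METH and 1449 CPM in saline in the others. Of 23 potassium channel genes, 4 were higher and 3 lower in METH, and 2 were higher and 2 lower in saline, to be read against the same shares of all genes. Kcnc2, a channel gene of fast-spiking interneurons, stood at 989 CPM in METH and 949.8 CPM in saline gated nuclei, against 2708 CPM in METH and 2968 CPM in saline in the others. Kcnd3, a channel gene of the transient A-type current, was higher by log2 0.74 (0.59 to 0.89) in METH and 0.90 (0.72 to 1.08) in saline. Nrg2, a neuregulin ligand of ErbB4, was higher by log2 0.91 (0.74 to 1.07) in METH and 1.02 (0.82 to 1.22) in saline.

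Markers of other cells were counted in the same nuclei. Of 6 measured Pvalb interneuron markers 4 were lower in both METH and saline gated nuclei, and of 4 Sst interneuron markers 3 were lower in METH and 4 in saline, beside 2.72% of all genes outside the gate lower in METH and 2.67% in saline. The gate's own limits on Vip, Btbd11 and Unc13c remove other interneurons, so these counts are a description. Of 4 measured Vip markers 1 was higher in METH, beside 2.95% of all genes outside the gate, and 1 lower in saline, beside 2.67%. Their median was log2 0.02 in METH and -0.31 in saline. The Vip list summed to 252 CPM in METH and 218 CPM in saline gated nuclei. In the other GABAergic nuclei it summed to 204 CPM in METH and 230 CPM in saline. Of 5 measured Meis and Pbx GABAergic markers 4 were lower in METH and none in saline. The list summed to 147 CPM in METH and 304 CPM in saline gated nuclei. In the others it summed to 583 CPM in METH and 263 CPM in saline, so the comparison nuclei also differed between the libraries. Of 5 measured Sncg and Cck interneuron markers 4 were higher in METH (median log2 1.24) and none in saline (median log2 0.48), beside 2.95% of all genes outside the gate higher in METH and 2.9% in saline. Sncg and Cck interneuron markers, a caudal eminence class, summed to 1323 CPM in METH and 901 CPM in saline gated nuclei, against 698 CPM in METH and 770 CPM in saline in the others. Of the markers of Cajal-Retzius cells, another reelin-rich cell, 4 are in the files. They summed to 1 UMI (1.36 CPM) in METH and 2 UMIs (3.64 CPM) in saline gated nuclei. In the other GABAergic nuclei they summed to 18.7 CPM in METH and 16.04 CPM in saline. Lhx5, Lhx1 and Ebf3 had no UMI in gated or in Vip-positive nuclei, and Lhx5 had none in either whole library. The remaining gene alone gave 66.7 CPM in METH and 88.2 CPM in saline Vip-positive nuclei. The list thus could not serve as a check against Cajal-Retzius cells. Oligodendrocyte precursor markers summed to 196 CPM in METH and 191 CPM in saline gated nuclei, against 102 CPM in METH and 132 CPM in saline in the others. Oligodendrocyte markers summed to 267 CPM in METH and 513 CPM in saline gated nuclei, and astrocyte markers to 222 CPM in METH and 282 CPM in saline. Microglia markers summed to 23.2 CPM in METH and 104 CPM in saline, and endothelial and mural markers to 4.09 CPM in METH and 58.2 CPM in saline. Of 8 oligodendrocyte markers none was at 0 in either library, of 7 microglia markers P2ry12 was at 0 in both, and of the 7 endothelial and mural markers in the files 6 were at 0 in METH, Cldn5 and Flt1 among them, and 1 in saline.

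Within the gate, nuclei differed by how many of the 6 genes they held. In METH 36 of 106 nuclei (34.0%, 25.0 to 43.8) held 3, 26 held 4 and 44 (41.5%) held 5 or 6, and in saline 25 of 98 (25.5%, 17.2 to 35.3) held 3, 27 held 4 and 46 (46.9%) held 5 or 6. The intervals of the shares with 3 genes overlap. Levels of some genes other than these 6 changed along this scale in both libraries. Egfr stood at 467 CPM in METH and 533 CPM in saline nuclei with 3 genes, at 1135 CPM in METH and 1246 CPM in saline with 4, and at 1683 CPM in METH and 1462 CPM in saline with 5 or 6. Alk stood at 622 CPM in METH and 653 CPM in saline with 3 genes, and at 1722 CPM in METH and 2187 CPM in saline with 5 or 6. Gad1, which the gate also used, stood at 564 CPM in METH and 577 CPM in saline with 3 genes. With 5 or 6 it stood at 1395 CPM in METH and 1280 CPM in saline. The median depth was 5848.5 UMIs with 3 genes, 6105 with 4 and 6506 with 5 or 6 in METH, and 4740, 4089 and 5205.5 UMIs in the same order in saline.

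Cnr1 and Sox6, genes of other interneuron classes, were lower with 5 or 6 gate genes than with 3 in both libraries. Cnr1, the CB1 cannabinoid receptor gene of Sncg and Cck interneurons, stood at 955 CPM in METH and 295 CPM in saline with 3 genes, at 132 CPM in METH and 497 CPM in saline with 4, and at 147 CPM in METH and 91.1 CPM in saline with 5 or 6. In saline it was thus highest with 4 genes. Sox6 stood at 582 CPM in METH and 320 CPM in saline with 3 genes, at 361 CPM in METH and 149.8 CPM in saline with 4, and at 106 CPM in METH and 49.4 CPM in saline with 5 or 6. Nuclei with at least 5 Cnr1 UMIs numbered 15 in METH and 9 in saline, of which 12 in METH and 4 in saline held 3 of the gate genes, and 1 in METH and 4 in saline held 4. Nuclei with at least 3 UMIs of Sox6 and Satb1 together numbered 14 in METH and 14 in saline, of which 8 in METH and 9 in saline held 3. Nos1, the gene of neuronal nitric oxide synthase, stood at 267 CPM in METH and 151 CPM in saline with 3 genes, at 168 CPM in METH and 142 CPM in saline with 4, and at 64.0 CPM in METH and 49.4 CPM in saline with 5 or 6. At equal scaling, the 3-gene nuclei carried fewer transcripts of Egfr and Alk, and of Gad1, and more of Cnr1 and Sox6 than the 5-or-6-gene nuclei, in both libraries.

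**Figure D2:**
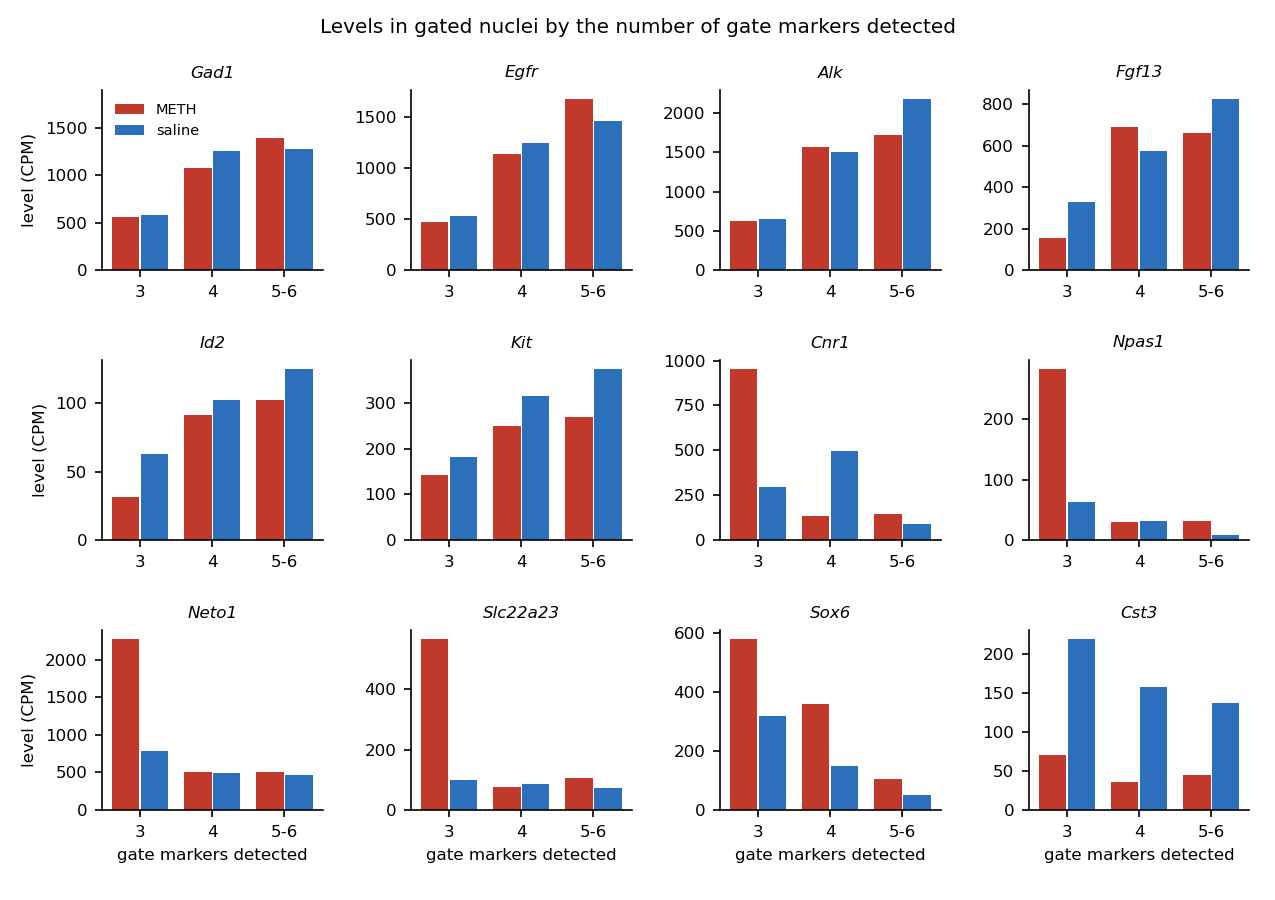
Levels (CPM of summed UMIs, 1 bar per library) of 12 genes in gated nuclei with 3, 4 and 5 or 6 gate genes, METH in red and saline in blue. Gad1, Egfr and Alk are lowest at 3 in both libraries, whereas Neto1 and Slc22a23 are highest at 3 in METH (2279 and 569 CPM, against 791 and 100.4 CPM in saline) and Cst3 is lower in METH than in saline at every step.

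Gated nuclei made up 1.93% (1.58 to 2.33) of kept barcodes in METH and 1.42% (1.15 to 1.72) in saline, a log2 ratio of 0.45 (0.04 to 0.86). Among GABAergic nuclei the ratio lay below 0 with an interval that covers 0, with 7.5% (6.18 to 9.0) in METH and 8.58% (7.02 to 10.4) in saline, a log2 ratio of -0.19 (-0.60 to 0.22). The METH library held more GABAergic nuclei, 1413 of 5490 kept barcodes against 1142 of 6917 in saline. Without nuclei holding at least 2 of Meis1, Pbx3 and Cdhr1, 1296 GABAergic nuclei were left in METH and 1120 in saline, and the share of gated nuclei among them was 8.18% in METH and 8.57% in saline (log2 -0.07, -0.48 to 0.35), with a log2 ratio of 0.53 (0.12 to 0.95) among kept barcodes. With every barcode thinned to 2000 UMIs before the gate, the shares of kept barcodes were 2.05% in METH and 1.64% in saline, with an interval that covers 0 (log2 0.32, -0.10 to 0.74), and without called doublets they were 1.92% in METH and 1.47% in saline (log2 0.38, -0.04 to 0.80). In nuclei of 4000 to 8000 UMIs the share among GABAergic nuclei was 8.83% in METH and 9.61% in saline, and at 8000 UMIs and over it was 8.38% in METH and 13.8% in saline, with overlapping intervals. The sign of the ratio thus depended on the denominator, and among GABAergic nuclei its interval covered 0.

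**Figure D3:**
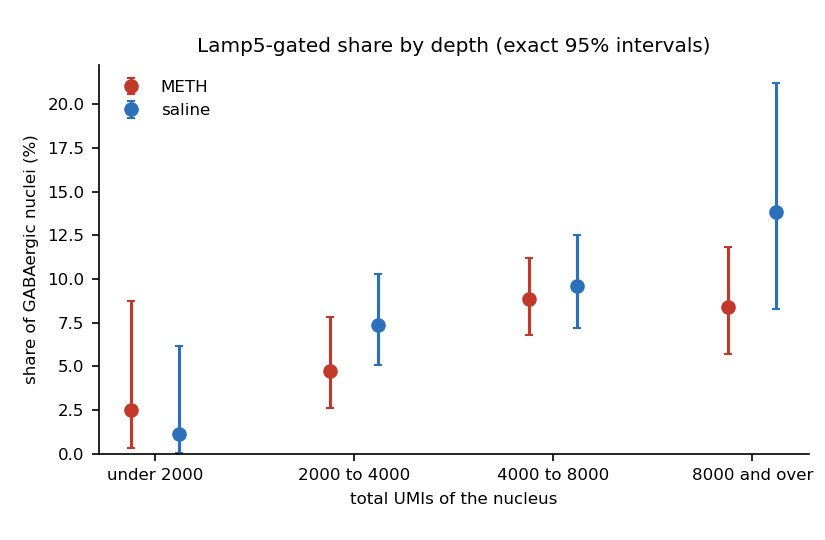
Share of GABAergic nuclei that passed the gate (%, vertical axis) in 4 ranges of total UMIs per nucleus, METH in red and saline in blue, with exact 95% binomial intervals. The intervals of the libraries overlap in every range, as at 8000 UMIs and over with 8.38% in METH and 13.8% in saline.

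METH was then set against saline within the gate. A gene counted as measured with 50 or more UMIs in the gated nuclei and a level of 20 CPM or more in METH or saline, which 5104 genes met. By the same size rule as above, 12 (0.235%) were higher in METH and 20 (0.392%) were lower. By the ratio alone 225 (4.41%) were higher and 264 (5.17%) lower, and 48.8% of genes stood above 0 and 51.2% below, with a median of log2 -0.01. In 73 METH and 73 saline nuclei paired one to one on total UMIs, with medians of 5403 and 5460 UMIs in METH and saline, 11 genes were higher (0.272%) and 23 lower (0.569%), and 9 of the 12 and 12 of the 20 passed again, with the direction kept in all 32. In nuclei with at least 4 gate genes, 5 of 3858 genes (0.13%) were higher and 7 (0.181%) lower, and 2 of the 12 and 6 of the 20 passed again. In the other GABAergic nuclei 13 of 7649 genes (0.17%) were higher in METH and 15 (0.196%) lower, and none of the 12 and 2 of the 20, Cst3 and Gtsf1, passed there.

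Most of the named genes higher in METH had smaller ratios once nuclei with 3 gate genes were left out: of all 12, 6 stayed past 1.5-fold by the ratio alone and 10 kept their sign. Npas1, a transcription factor gene of caudal eminence interneurons, stood at 109 CPM (86.4 to 136) in METH, in 24 nuclei, against 29.1 CPM (16.6 to 47.3) in saline, in 6 nuclei (log2 1.90, 1.12 to 2.78). With at least 4 gate genes it stood at 31.4 CPM in METH and 15.4 CPM in saline (log2 1.03, -0.40 to 2.67). In Btbd11-positive GABAergic nuclei, outside the gate, Npas1 passed the rule as well, at 73.5 CPM in METH and 29.3 CPM in saline (log2 1.33, 0.81 to 1.88), while in Vip-positive nuclei it stood at 172 CPM in METH and 193 CPM in saline (log2 -0.16). Neto1, an auxiliary subunit of kainate receptors, stood at 1050 CPM in METH and 570 CPM in saline (log2 0.88, 0.69 to 1.08), and at 507 CPM in METH and 479 CPM in saline with at least 4 gate genes (log2 0.08, -0.20 to 0.36). The METH and saline levels of Neto1 with at least 4 gate genes thus lay within counting error of each other. Slc22a23, a member of the organic ion transporter family, stood at 240 CPM in METH and 83.7 CPM in saline (log2 1.52, 1.04 to 2.02), and at 94.3 CPM in METH and 76.9 CPM in saline with at least 4 gate genes (log2 0.29, -0.39 to 1.00). Without the nuclei high in Cnr1 or in Sox6 and Satb1, Neto1 gave log2 -0.01 and Slc22a23 log2 0.51. Sncg and Cck interneuron markers summed to 1323 CPM in METH and 901 CPM in saline gated nuclei, and their part in the result was not tested beyond these values.

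Col25a1, a transmembrane collagen gene, stood at 96.7 CPM in METH and 36.4 CPM in saline (log2 1.41), and gave log2 0.03 with at least 4 gate genes. Yjefn3 gave log2 1.11 in all gated nuclei and -0.08 with at least 4 gate genes, and Megf11, a cell-surface protein gene, gave log2 1.44 and -0.80 in the same sets. In Megf11, 46.4% of the METH UMIs came from 1 nucleus. Lypd6b, a gene of the Ly6 family of receptor modulators, stood at 65.4 CPM in METH and 16.4 CPM in saline (log2 2.00, 0.95 to 3.21), in 12 METH and 6 saline nuclei. It gave log2 1.42 (0.07 to 3.02) with at least 4 gate genes. In all gated nuclei 39.6% of its METH UMIs came from 1 nucleus, and that nucleus held 19 of the 21 METH UMIs with at least 4 gate genes. The protocadherin gene Pcdh19 stood at 83.1 CPM in METH and 25.5 CPM in saline (log2 1.71, 0.85 to 2.66), in 11 METH and 8 saline nuclei, and the scaffold gene Lrrc1 at 83.1 CPM in METH and 30.9 CPM in saline (log2 1.43). With at least 4 gate genes Pcdh19 gave log2 1.62 (-0.71 to 4.89), on 8 METH and 2 saline UMIs, and Lrrc1 0.86 (-0.21 to 2.02). Thinning before the gate, which also changes which nuclei pass, turned Megf11 to log2 -1.03 and Lrrc1 to -0.35. With thinning after the gate they gave log2 0.64 for Megf11 and 0.90 for Lrrc1. Leaving out the nuclei high in Cnr1 or in Sox6 and Satb1 turned Lypd6b to -0.89.

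Sox6 was the one named gene higher in METH that passed again with at least 4 gate genes. It stood at 320 CPM (281 to 364) in METH and 151 CPM (120 to 187) in saline in all gated nuclei (log2 1.08, 0.72 to 1.46), and at 204 CPM in METH and 82.0 CPM in saline with at least 4 gate genes (log2 1.32, 0.73 to 1.94). Its UMIs lay in few nuclei, 23 in METH and 19 in saline, with 19.1% of the METH and 21.7% of the saline UMIs in 1 nucleus each. Without called doublets the ratio was log2 0.72 (0.32 to 1.13), which no longer passed. In nuclei paired on UMIs it stood at 347 CPM in METH and 178 CPM in saline (log2 0.97, 0.58 to 1.37), just short of the rule. With every barcode thinned to 2000 UMIs before the gate, which also changes which nuclei pass, it turned to log2 -0.94 (-2.38 to 0.39). With thinning after the gate it gave log2 1.18 (0.42 to 1.99). In the other GABAergic nuclei Sox6 stood at 1006 CPM in METH and 1047 CPM in saline. In the Vip-positive nuclei among them it passed the rule, at 173 CPM in METH and 79.0 CPM in saline (log2 1.13, 0.69 to 1.60), and in the Btbd11-positive nuclei it stood at 1306 CPM in METH and 1484 CPM in saline (log2 -0.18).

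**Figure D4:**
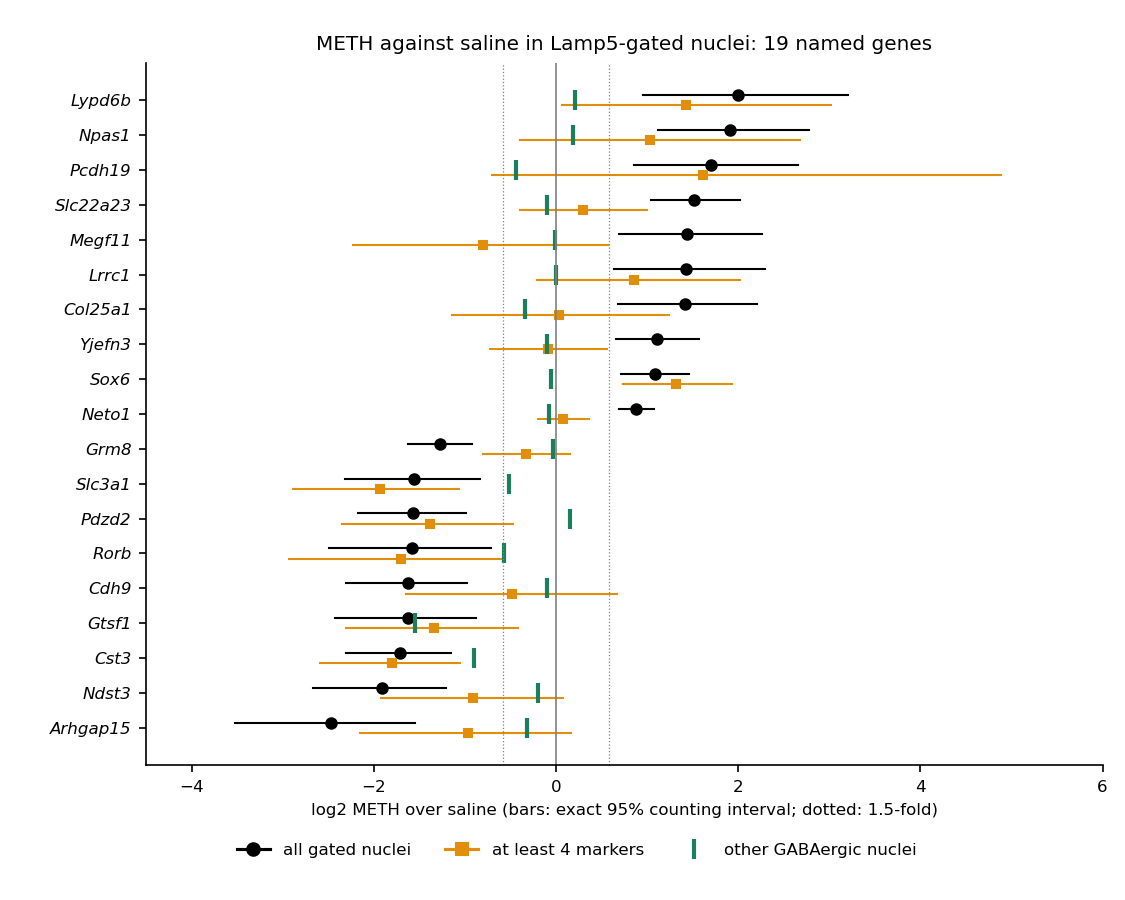
Log2 ratio of METH over saline for 19 named genes, in all gated nuclei (black) and in gated nuclei with at least 4 gate genes (orange), each with its exact 95% counting interval, and in the other GABAergic nuclei (green bars). Neto1 (0.88 and 0.08), Yjefn3 (1.11 and -0.08) and Megf11 (1.44 and -0.80) fall below the 1.5-fold line with at least 4 gate genes, whereas Cst3 (-1.72 and -1.80) and Slc3a1 (-1.56 and -1.94) keep theirs.

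Among the named genes lower in METH, Cst3 and Slc3a1 passed again with at least 4 gate genes. Cst3, the gene of cystatin C, a secreted protease inhibitor abundant in glia, stood at 50.4 CPM (35.5 to 69.5) in METH, in 27 nuclei, against 166 CPM (133 to 203) in saline, in 44 nuclei (log2 -1.72, -2.31 to -1.15). It gave log2 -1.66 in nuclei paired on UMIs and -1.80 with at least 4 gate genes, and stood at 96.6 CPM in METH and 181 CPM in saline in the other GABAergic nuclei (log2 -0.90). Microglia markers (23.2 CPM in METH and 104 CPM in saline) and oligodendrocyte markers (267 CPM in METH and 513 CPM in saline) went the same way as Cst3 in the gated nuclei. Endothelial and mural markers (4.09 CPM in METH and 58.2 CPM in saline) also went that way. Astrocyte markers (222 CPM in METH and 282 CPM in saline) did so by less, and oligodendrocyte precursor markers (196 CPM in METH and 191 CPM in saline) did not. Microglia markers were seen in 6.6% of METH and 13.3% of saline gated nuclei, and endothelial and mural markers in 1.89% and 11.2%. Cst3 was seen in 25.5% of METH and 44.9% of saline gated nuclei. The part of any of these marker lists in the Cst3 result was not tested. Slc3a1, a subunit of the cystine and dibasic amino acid transporter, stood at 32.7 CPM in METH and 96.4 CPM in saline (log2 -1.56, -2.32 to -0.84), and at 29.5 CPM in METH and 113 CPM in saline with at least 4 gate genes (log2 -1.94, -2.89 to -1.06). In the other GABAergic nuclei Slc3a1 gave log2 -0.51 (-0.72 to -0.31). Gtsf1, known from the piRNA pathway of germ cells, stood at 30.0 CPM in METH and 92.8 CPM in saline (log2 -1.63), and gave log2 -1.55 (-1.80 to -1.31) in the other GABAergic nuclei.

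Several of the other lower genes had many of their UMIs in 1 nucleus or smaller ratios with at least 4 gate genes. Grm8, a presynaptic metabotropic glutamate receptor gene, stood at 143 CPM in METH and 346 CPM in saline (log2 -1.27, -1.63 to -0.92), but 38.4% of its saline UMIs came from 1 nucleus, and it gave log2 -0.33 (-0.80 to 0.15) with at least 4 gate genes. The cadherin gene Cdh9 had 43.3% of its saline UMIs in 1 nucleus and gave log2 -1.63 in all gated nuclei and -0.48 with at least 4 gate genes. Arhgap15, a regulator of the small GTPase Rac, stood at 16.3 CPM in METH and 91.0 CPM in saline (log2 -2.48, -3.52 to -1.55), in 7 METH and 13 saline nuclei. Of its 50 saline UMIs 32 lay in nuclei with 3 gate genes, and it gave log2 -0.97 (-2.15 to 0.17) with at least 4. Outside the gate Arhgap15 gave log2 -0.32 in the other GABAergic nuclei and, among them, 1.47 (0.51 to 2.55) in Vip-positive and 0.21 in Btbd11-positive nuclei. Ndst3, an enzyme gene of heparan sulfate synthesis, gave log2 -1.92, and the PDZ-domain protein gene Pdzd2 -1.57, with -0.91 for Ndst3 and -1.38 for Pdzd2 with at least 4 gate genes. Rorb, a transcription factor gene known from excitatory neurons, gave log2 -1.58. The listed excitatory neuron markers summed to 835 CPM in METH and 895 CPM in saline gated nuclei. Under that sum, 3 of the 6 measured members stood above 0 and 3 below. By the size rule 2 of the 6 were lower and none higher, beside 0.392% of all measured genes lower. The part of these markers in the Rorb result was not tested. With every barcode thinned to 2000 UMIs before the gate, Grm8 (1.13), Rorb (1.97) and Pdzd2 (0.26) turned to log2 ratios above 0. That setting also changes which nuclei pass, so it does not compare the same nuclei. With thinning after the gate the ratios stayed below 0, at log2 -0.54 for Grm8, -0.36 for Rorb and -0.84 for Pdzd2.

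Most of the listed Lamp5 and neurogliaform genes did not pass the size rule between METH and saline. Of the 13 measured, 2 were higher in METH by the rule, Npas1 and Sox6, and none was lower, beside 0.235% of all measured genes higher and 0.392% lower. The median was log2 -0.21 in all gated nuclei and 0.08 with at least 4 gate genes. Both called genes stood lower in gated than in other GABAergic nuclei, Sox6 by log2 -1.65 in METH and -2.79 in saline and Npas1 by log2 -0.39 in METH and -2.11 in saline, and Sox6 is also on the list of medial eminence factors. Reln stood lower in METH by less than the rule (log2 -0.38, -0.47 to -0.29), and gave log2 -0.29 in nuclei paired on UMIs and 0.14 in the other GABAergic nuclei. Pde11a gave log2 0.10 (-0.06 to 0.26), Egfr 0.03 (-0.12 to 0.18), and Gad1 -0.02 (-0.18 to 0.14). Kit stood at 225 CPM in METH and 306 CPM in saline (log2 -0.44, -0.76 to -0.12). Adarb2 gave log2 0.53 (0.41 to 0.66), and 0.19 with at least 4 gate genes.

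None of the 5 measured genes of GABA synthesis and transport and none of the 13 measured GABA receptor genes passed the rule. Of all measured genes 0.235% passed as higher and 0.392% as lower, so lists this short would mostly hold no such gene. Of the receptor genes 11 stood below 0, beside 51.2% of all measured genes. Their median was log2 -0.09, beside -0.09 in the other GABAergic nuclei and -0.01 over all genes. Gabrg3, a gamma subunit gene of GABA-A receptors, stood at 2119 CPM in METH and 2540 CPM in saline (log2 -0.26, -0.37 to -0.16). Abat, the GABA-degrading transaminase, stood at 228 CPM in METH and 164 CPM in saline (log2 0.47, 0.10 to 0.86). Of 19 glutamate receptor genes, Grm8 passed as lower and no other, beside 0.392% of all measured genes lower, with a median of log2 -0.11. Grm5 stood at 1056 CPM in METH and 1370 CPM in saline (log2 -0.38, -0.52 to -0.23).

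Some listed genes likewise had smaller or opposite ratios once nuclei with 3 gate genes were left out. Tnr, the matrix glycoprotein tenascin-R, stood at 207 CPM in METH and 317 CPM in saline (log2 -0.61, -0.94 to -0.29), and gave log2 -0.09 with at least 4 gate genes. Cnr1 stood at 391 CPM in METH and 244 CPM in saline (log2 0.68, 0.38 to 0.99), and gave log2 -0.66 with at least 4 gate genes. Gria3, an AMPA receptor subunit gene, gave log2 -0.46 (-0.64 to -0.27) in all gated nuclei and 0.13 with at least 4 gate genes. Tacr1, the receptor gene of substance P, kept its value, with 73.6 CPM in METH and 34.6 CPM in saline (log2 1.09, 0.31 to 1.93) and log2 1.202 with at least 4 gate genes, short of the rule. Fyn, the kinase that phosphorylates Dab1, stood at 439 CPM in METH and 322 CPM in saline (log2 0.45, 0.18 to 0.72). None of these 5 genes passed the size rule in all gated nuclei.

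Genes downstream of dopamine and cyclic nucleotides were measured because METH raises extracellular dopamine. Of 10 measured dopamine signalling genes none passed, beside 0.235% of all measured genes higher and 0.392% lower. At those shares a list this short would mostly hold no such gene. No dopamine receptor gene had enough UMIs to be measured. Pde10a, a phosphodiesterase best known from striatal neurons, stood at 406 CPM in METH and 677 CPM in saline (log2 -0.74, -0.96 to -0.51), with log2 -0.92 in nuclei paired on UMIs, -0.47 with at least 4 gate genes and -0.86 in the other GABAergic nuclei. Of 14 phosphodiesterase genes 12 stood above 0, beside 48.8% of all measured genes, with a median of log2 0.14, and none passed. Their median was log2 -0.03 with at least 4 gate genes and -0.02 in the other GABAergic nuclei. Of 23 immediate early genes, the activity-induced genes, only Nr4a1 (60.0 CPM in METH and 38.2 CPM in saline, log2 0.65, -0.13 to 1.47) and Homer1 (342 CPM in METH and 409 CPM in saline, log2 -0.26, -0.53 to 0.01) were measured.

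Of the mitochondrially encoded transcripts, all 8 measured stood below 0 in METH over saline, 2 passed the rule as lower, beside 0.392% of all measured genes, and the median was log2 -0.54, beside -0.55 in the other GABAergic nuclei. Mt-co3, a cytochrome oxidase subunit gene, stood at 251 CPM in METH and 506 CPM in saline (log2 -1.01, -1.29 to -0.74), and Mt-cyb, the cytochrome b gene, at 149 CPM in METH and 287 CPM in saline (log2 -0.95, -1.32 to -0.59). These transcripts were 0.162% of UMIs in METH and 0.261% in saline gated nuclei. The 16 measured nuclear genes of oxidative phosphorylation had a median of log2 -0.13, with none past the rule. Of 7 endoplasmic reticulum chaperone genes 6 stood below 0, beside 51.2% of all measured genes, with a median of log2 -0.26, and none passed. Their median was log2 -0.33 with at least 4 gate genes and -0.44 in the other GABAergic nuclei. Hspa5 stood at 42.2 CPM in METH and 63.7 CPM in saline (log2 -0.59, -1.34 to 0.15). Of 11 clock genes 9 stood below 0, beside 51.2% of all measured genes, with a median of log2 -0.20. Rorb passed as lower, beside 0.392% of all measured genes. The median of the clock genes was log2 0.02 with at least 4 gate genes and -0.001 in the other GABAergic nuclei. Per3 gave log2 -0.61 (-1.06 to -0.17) and Dbp -0.89 (-1.67 to -0.12) in all gated nuclei.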

How the data were processed

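Rat orbitofrontal nuclei were analysed in 1 METH and 1 saline library. The values are UMI counts as the authors deposited them, 1 matrix per library from Cell Ranger 7.0.0 (per the submitters' processing notes). Those notes list hg38 as the genome, whereas the gene identifiers are rat Ensembl IDs, and no source used here gives the rat build. The gate genes, the gene lists and the rules were chosen with earlier results of these data known. UMIs were summed by library and nucleus group and scaled to CPM. Ratios carry exact conditional 95% binomial intervals (SciPy 1.17.1), levels exact Poisson and shares Clopper-Pearson intervals. No p-value was computed. Symbols shared by several gene IDs were left out.

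Genes were named by the interval bound closest to 0: outside the gate the 15 highest and 5 lowest, and for METH over saline the 10 highest and 10 lowest past the size rule. The METH naming left out mitochondrial, ribosomal, haemoglobin and clone-named genes, genes in fewer than 10 gated nuclei and genes with most of a library's UMIs in a single nucleus. Gate genes and measured list members could also be named. Some genes are not reported here, among them 1 of the 10 lowest, which leaves 19 named genes for METH over saline.

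Vip-positive nuclei held at least 2 Vip UMIs, Btbd11-positive nuclei at least 3 Btbd11 UMIs without Vip, excitatory nuclei at least 3 Slc17a7 UMIs without Gad1 or Gad2, and oligodendrocyte nuclei at least 10 UMIs of myelin genes. Doublets called by Scrublet in scanpy 1.11.5 (expected rate 0.06) numbered 328 in METH and 399 in saline, with 7 METH and 2 saline in the gate; they were kept, and left out in an alternative. Thinning drew 2000 UMIs per nucleus; shallower nuclei (2 METH and 1 saline in the gate) were left out. TMM factors came from edgeR 4.0.16 in R 4.3.3. The computation was tested on simulated data.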

Additional observations from a re-analysis of the deposited data

How the results depend on the processing

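No paired analysis was possible because each group has 1 library. The ratio of shares turned with the denominator, log2 0.45 of kept barcodes and -0.19 of GABAergic nuclei. The count of genes higher in METH, 12, was 1 after thinning each gated nucleus to 2000 UMIs, 2 after thinning before the gate, 5 with at least 4 gate genes, 19 with equal weight per nucleus, 30 with no minimum level and 5 with at least 100 UMIs. The count of genes lower, 20, was 1, 1, 7, 12, 65 and 7 under the same settings, and 10 without the nucleus that held most UMIs of each gene. Thinning and the minimum of 100 UMIs leave fewer UMIs or genes to call, and the cause of the other shifts was not tested. After thinning each gated nucleus, all 12 and all 20 genes kept their sign. By the ratio alone all 12 and 16 of the 20 stayed past 1.5-fold there. With thinning before the gate, 8 of the 12 and 14 of the 20 kept their sign. After seeing the data, 2 alternatives were added. Leaving out nuclei high in Cnr1 or in Sox6 and Satb1 gave 3 higher and 10 lower, and an interval bound past 1.2-fold gave 58 higher and 68 lower. Of the named genes, Lypd6b (-0.89) and Neto1 (-0.0072) changed sign without those nuclei, and Megf11 (-0.80) and Yjefn3 (-0.0837) with at least 4 gate genes. With thinning before the gate, which also changes which nuclei pass, the log2 ratio was -0.94 for Sox6, -1.03 for Megf11, -0.35 for Lrrc1, 0.26 for Pdzd2, 1.13 for Grm8 and 1.97 for Rorb, all of opposite sign to their main values. TMM scaling moved the median of all genes to log2 0.04, and gave 13 higher and 16 lower. The 98 to 106 nuclei per library and the single library per group limit every comparison.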

Other observations

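Nuclei with at least 4 gate genes showed genes higher in METH that did not pass in all gated nuclei. Thsd7a stood at 244 CPM in METH and 87.1 CPM in saline there (log2 1.48, 0.93 to 2.08), and at log2 0.29 in all gated nuclei. Stxbp6, a gene of a SNARE-binding protein, stood at 116 CPM in METH and 30.8 CPM in saline (log2 1.91, 1.00 to 2.95), and Txndc11 at 151 CPM in METH and 51.3 CPM in saline (log2 1.56, 0.84 to 2.35). In the other GABAergic nuclei these genes gave log2 0.06, 0.08 and 0.01 in the order Thsd7a, Stxbp6 and Txndc11. With at least 4 gate genes, Myo3a had 39.3 CPM in METH and 126 CPM in saline (log2 -1.68, -2.50 to -0.90). Bcas1, a gene of the oligodendrocyte lineage, was called higher in METH (log2 1.85 in all gated nuclei), with 87.5% of its METH UMIs in 1 nucleus. These genes were chosen after their values were seen.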
